A study of Homo sapiens with 2 samples.

Results

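The RAB small GTPases were followed in SW13, an established human cell line of adrenal adenocarcinoma origin, by setting ribosome profiling beside RNA sequencing. Members were the rows of the deposited gene table whose symbol is RAB with 1 or 2 digits and at most 2 further letters or 1 further digit, without the interacting and effector proteins. This gave 61 of 23608 gene rows. RAB7L1, at 1.62 FPKM in ribosome profiling and 2.05 FPKM in RNA sequencing, the readthrough rows ISY1-RAB43, MIA-RAB4B and RAB4B-EGLN2, the pseudogene RAB9BP1 and the antisense row RAB11B-AS1 are not of that form and were left out. The ribosome profiling library and the RNA sequencing library, 1 of each, both came from cells transfected with 5 µg of Add2-Mhrt779 and Add2-Hotair, plasmids for murine long non-coding RNAs, and collected after 48 hours. No library of untransfected cells was analysed here, and with 1 library per assay no value has a replicate error and no p-value was computed.

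RAB proteins are the largest branch of the Ras superfamily of small GTPases. Each is held in the cytosol by a GDP dissociation inhibitor, is anchored to a membrane by geranylgeranyl groups on cysteines near its end, and is switched on there when an exchange factor replaces GDP with GTP. The GTP form recruits tethers, motors and other effectors that move or fuse vesicles, until a GTPase-activating protein ends the signal. Each RAB marks its own compartments, so the set of RAB mRNAs that a cell translates bears on which trafficking routes it can run. Ribosome profiling sequences the mRNA fragments that ribosomes protect from nuclease, and RNA sequencing reads the total RNA, so a gene's ratio between them is a measure of how much ribosome signal its mRNA carries.

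Ribosomes load an mRNA at its start codon, and the bases around that codon are shown for the best covered members and for RAB12 and RAB31, which had the lowest ratios among the members that the authors' model tested. They are from GENCODE release 29 transcripts, written 5′ to 3′ with 12 bases before the start codon, the start codon in capitals and 6 bases after it.
RAB7A: cgcgtttgaaggATGacctct
RAB1A: agctgcagtgacATGtccagc
RAB1B: gccgccgccgccATGaacccc
RAB5C: gctggacgggcaATGgcgggt
RAB8A: agagagtgtaatATGgcgaag
RAB10: ccgctcctcccaATGgcgaag
RAB11A: ctcggccgcgcaATGggcacc
RAB11B: agcgccaggacaATGgggacc
RAB12: ccgcatgcgtgtATGgatccg
RAB31: ggctgcgagcacATGatggcg
A purine 3 bases before the start codon and a G just after it are known to favour initiation. Of the 39 members of at least 1 mean FPKM examined, 35, or 89.7%, had the purine and 24, or 61.5%, had the G. Among 2116 protein-coding genes with a mean of at least 10 FPKM the shares were 91.3% and 52.9%. RAB10, RAB12 and RAB31 lack the purine, and RAB1A, RAB1B, RAB7A and RAB31 lack the G, so that RAB31 is the only one of the 10 shown without either. In RAB31, however, a second ATG follows the start codon at once in the same frame, and that ATG has both the purine and the G. Which of them ribosomes use was not tested.

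The family was broadly transcribed and mostly at low levels. Of the 61 members, 40 were above 0 in ribosome profiling and 53 in RNA sequencing, against 11423 and 13990 of all 23608 gene rows. No member was above 0 in ribosome profiling alone, 13 were listed at 0 in ribosome profiling only, and 8 were listed at 0 in both libraries. The matching counts over all gene rows were not made, so these are not read as a trait of the family. At a mean of at least 1 FPKM, 4 of 40 members, or 10%, were listed at 0 in ribosome profiling, against 7.44% of all genes. Levels are the deposited FPKM, by its name fragments scaled to a length and to library size, and the length used is not given. The members' FPKM summed to 275 in ribosome profiling and 311 in RNA sequencing. RAB7A made up 22.6% of the ribosome profiling sum and 12.3% of the RNA sequencing sum. The 9 members with a mean of at least 10 FPKM over both libraries, the level required below for a fold, held 66.0% and 49.9% of the sums. A further 31 had a mean of 1 to 10 FPKM, and 21 lay under 1, with no single value in these 21 above 1.76 FPKM.

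**Figure D1:**
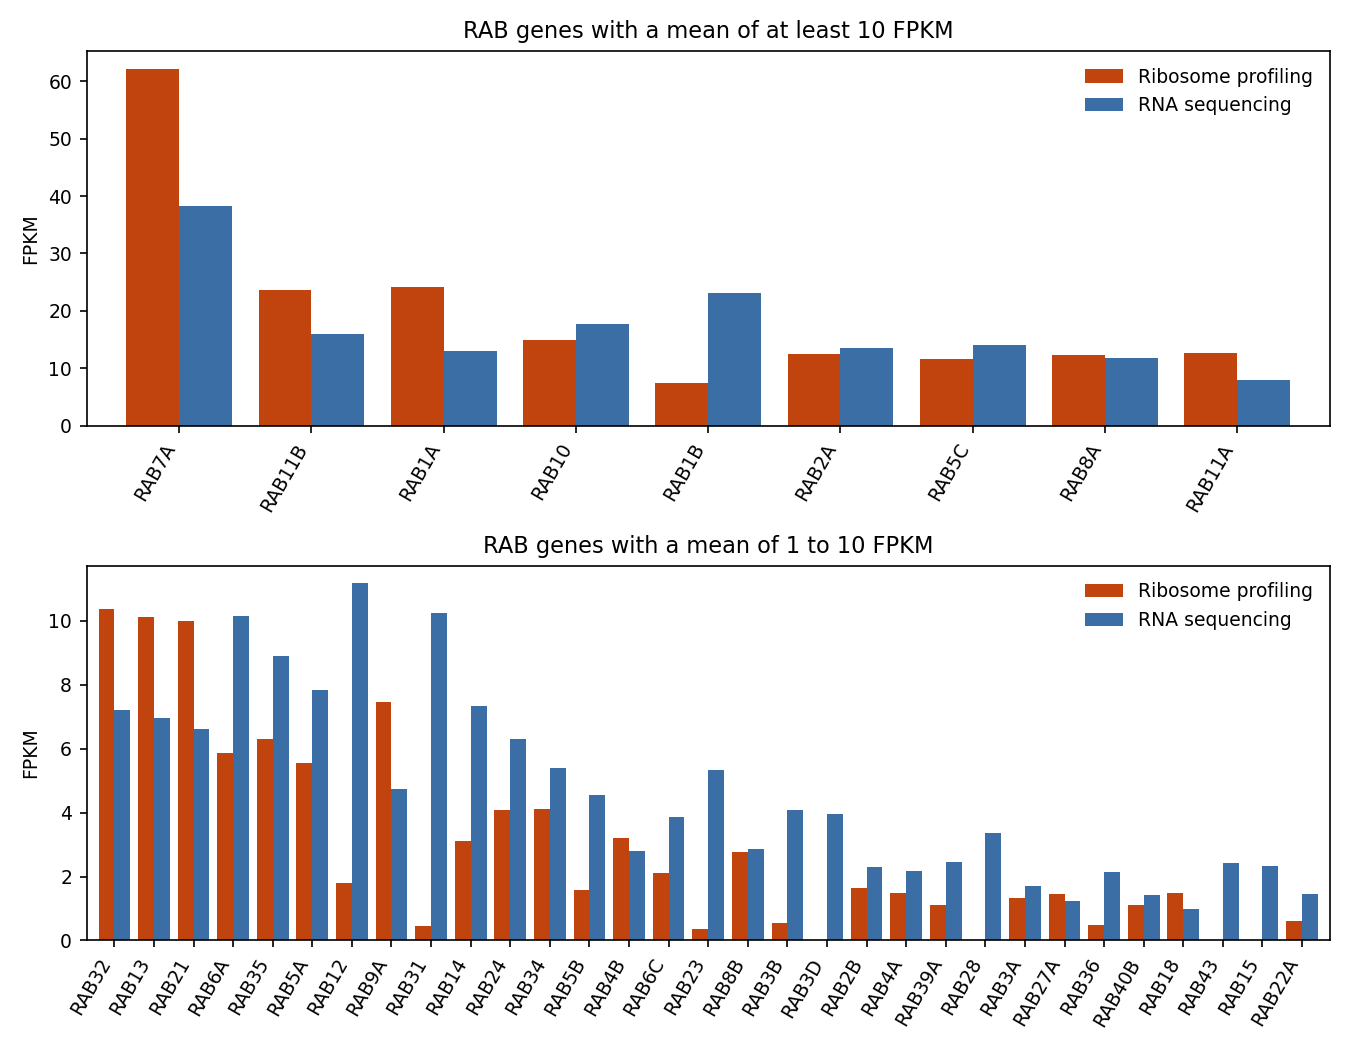
FPKM of RAB genes in the single ribosome profiling library (left bar) and the single RNA sequencing library (right bar), for the 9 genes with a mean of at least 10 FPKM (top) and the 31 with a mean of 1 to 10 FPKM (bottom). RAB7A is highest in both libraries, RAB1B is the only one of the top 9 with far more RNA than ribosome signal, and RAB12, RAB31 and RAB23 have long RNA sequencing bars beside short ribosome profiling bars.

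Folds are given relative to the median gene, on the log2(FPKM + 1) scale, which understates the ratio of low genes. The median gene is that of 2734 genes with a mean of at least 10 FPKM, whose deposited FPKM was 1.31-fold higher in the ribosome profiling library. The 9 RAB members in this set had log2 ratios from -1.91 to 0.46 with a median of -0.34, which is 1.26-fold below the median gene. Without centring the median was 0.052, so that its sign rests on the centring. The last member above the level of 10 was RAB11A, with a mean of 10.3 FPKM, and the first below it was RAB32, with 8.78 FPKM. Of these 9, none lay 2-fold or more above it, against 13.1% of all 2734 genes, and 1 lay 2-fold or more below, against 19.7%. Shares of 9 genes are coarse, and no difference from the background was tested.

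Among the RABs of the endoplasmic reticulum and Golgi, RAB1A and RAB1B went apart. Both act at the step from the endoplasmic reticulum to the Golgi, where they recruit tethering factors, and their proteins are close paralogs. The deposited locus of RAB1A, on chromosome 2 from 65283495 to 65357435 in hg19, is shared with CEP68 and need not be the span of RAB1A alone. RAB1A had 24.1 FPKM in ribosome profiling and 12.9 FPKM in RNA sequencing, 1.37-fold above the median gene. RAB1B, on chromosome 11 from 66036056 to 66044963, had 7.40 FPKM in ribosome profiling and 23.1 FPKM in RNA sequencing, 3.75-fold below the median gene. RAB1B was thus rank 13 of the family in ribosome profiling and rank 2 in RNA sequencing, while RAB1A was rank 2 and rank 7. Without centring, the authors' deposited table gives RAB1A a log2 ratio of 0.90 ± 0.86 and RAB1B one of -1.64 ± 0.94, where ± is the standard error of their model, here and below. RAB1A minus RAB1B came to 2.54 from the authors' deposited table, and its 95% interval ran from 0.046 to 5.03, which holds their model error only and is not adjusted for the 12 pairs that have such an interval. Summed over both genes, the levels were 31.5 FPKM in ribosome profiling and 36.0 FPKM in RNA sequencing.

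Whether reads could pass between these paralogs bears on that difference. The stretch that codes for the phosphate-binding loop, which every active small GTPase uses to hold its nucleotide, is shown with the loop's codons in capitals, because it is among the most conserved parts of the family.
RAB1A: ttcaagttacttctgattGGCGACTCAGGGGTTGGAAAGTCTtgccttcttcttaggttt
RAB1B: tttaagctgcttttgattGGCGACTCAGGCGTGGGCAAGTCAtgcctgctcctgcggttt
RAB11A: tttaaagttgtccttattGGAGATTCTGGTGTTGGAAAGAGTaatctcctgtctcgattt
RAB11B: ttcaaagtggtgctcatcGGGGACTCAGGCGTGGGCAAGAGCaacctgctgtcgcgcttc
RAB7A: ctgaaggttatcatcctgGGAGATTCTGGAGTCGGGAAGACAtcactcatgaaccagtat
The whole coding sequences of RAB1A and RAB1B were identical at 74.9% of aligned positions, and those of RAB11A and RAB11B at 72.5%. A run of 30 bases, about the length of a ribosome footprint, was shared with the transcripts of any other gene for 7.81% of such runs in RAB1A, of which most match the unnamed gene AC067945.1. In RAB1B 37.9% were shared, all with the related gene RAB1C and none with RAB1A, so the level of RAB1B is uncertain to that extent. RAB1A also shares its deposited locus with CEP68.

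RAB2A, which acts between the Golgi and the endoplasmic reticulum and in late endosome fusion, lies on chromosome 8 from 61429469 to 61536203. It had 12.5 FPKM in ribosome profiling and 13.5 FPKM in RNA sequencing, 1.41-fold below the median gene, and its paralog RAB2B had 1.63 FPKM in ribosome profiling and 2.30 FPKM in RNA sequencing. RAB6A, the RAB of Golgi exit and retrograde transport, had 5.85 FPKM in ribosome profiling and 10.1 FPKM in RNA sequencing. RAB6C had 2.11 FPKM in ribosome profiling and 3.86 FPKM in RNA sequencing. Of the 30-base runs in its coding sequence 90.2% were shared with other genes, mostly with RAB6D, and of those in RAB6A 40.5% were, so reads of these rows may have been divided between them. RAB18, which works on lipid droplets and the endoplasmic reticulum, had 1.49 FPKM in ribosome profiling and 0.98 FPKM in RNA sequencing. It was 1 of 12 among the 40 members of at least 1 FPKM with a higher deposited FPKM in ribosome profiling. Its log2 ratio was 0.60 ± 1.25 in the authors' deposited table, in a row that their model did not test. RAB34, linked to primary cilia, had 4.10 FPKM in ribosome profiling and 5.38 FPKM in RNA sequencing, and RAB36 had 0.48 FPKM in ribosome profiling and 2.14 FPKM in RNA sequencing. RAB43 was listed at 0 in ribosome profiling and had 2.43 FPKM in RNA sequencing, and 85.7% of its 30-base coding runs were shared with RAB43P1. The readthrough row ISY1-RAB43, at the same deposited locus, had 1.84 FPKM in ribosome profiling and 2.26 FPKM in RNA sequencing. RAB6B, RAB33A and RAB41 were listed at 0 in ribosome profiling and had 1.76, 1.22 and 1.28 FPKM in RNA sequencing. RAB30 and RAB33B were under 1 FPKM in each library, and RAB19 was listed at 0 in both.

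On early endosomes, all 3 forms of RAB5 had a lower deposited FPKM in ribosome profiling than in RNA sequencing. So did 28 of the 40 members of at least 1 FPKM, these 3 included. RAB5 directs the fusion of incoming endocytic vesicles. RAB5C, on chromosome 17 from 40276994 to 40307062, had 11.6 FPKM in ribosome profiling and 14.1 FPKM in RNA sequencing, 1.57-fold below the median gene. RAB5A had 5.56 FPKM in ribosome profiling and 7.84 FPKM in RNA sequencing, and RAB5B had 1.58 FPKM in ribosome profiling and 4.54 FPKM in RNA sequencing. The order RAB5C, RAB5A, RAB5B was the same in both libraries. Their log2 ratios in the authors' deposited table were -0.28 ± 0.89 for RAB5C, -0.50 ± 0.94 for RAB5A and -1.52 ± 1.04 for RAB5B. Differences in log2 ratio between them in the authors' deposited table were 1.03 for RAB5A minus RAB5B, with a 95% interval from -1.72 to 3.77, and -0.21 for RAB5A minus RAB5C, with an interval from -2.75 to 2.33. In RAB5C 76.0% of the 30-base runs were shared with other genes, mostly with AC099811.2, and in RAB5A 20.2% were, all with AC005832.3.

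RAB31 and RAB21 stood at opposite ends of the early endosome group. RAB31, a relative of RAB5 and RAB22A that acts between the Golgi and endosomes, lies on chromosome 18 from 9708228 to 9862553. It had 0.46 FPKM in ribosome profiling and 10.2 FPKM in RNA sequencing, and was rank 38 and rank 10 of the family. Its log2 ratio of -4.49 ± 1.57 in the authors' deposited table, with q = 0.158, was the lowest of any member with a finite one. RAB21, which is known for the traffic of integrins, had 9.99 FPKM in ribosome profiling and 6.63 FPKM in RNA sequencing, and its log2 ratio was 0.59 ± 0.88 in the authors' deposited table. RAB22A had 0.61 FPKM in ribosome profiling and 1.44 FPKM in RNA sequencing. RAB22A minus RAB31 came to 3.25 from the authors' deposited table, with an interval from -0.57 to 7.08 that holds 0. RAB20 was listed at 0 in both libraries. RAB4A and RAB4B, of fast recycling, had 1.50 and 3.21 FPKM in ribosome profiling against 2.16 and 2.81 FPKM in RNA sequencing, and the RAB4B row holds the readthrough symbol RAB4B-EGLN2 too.

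Recycling and cell surface RABs held 4 of the 9 best covered members, and the RAB11 paralogs had ratios close to each other. RAB11A and RAB11B run the recycling endosome. RAB11A, on chromosome 15 from 66161797 to 66184329, had 12.6 FPKM in ribosome profiling and 7.90 FPKM in RNA sequencing, 1.17-fold above the median gene. The deposited locus of RAB11B, on chromosome 19 from 8439260 to 8469317, is shared with other rows and need not be the span of RAB11B alone. RAB11B had 23.7 FPKM in ribosome profiling and 15.9 FPKM in RNA sequencing, 1.11-fold above. RAB11B was thus higher than RAB11A in each library, and RAB11A minus RAB11B came to 0.11 from the authors' deposited table, with an interval from -2.11 to 2.33. The locus of RAB11B also holds MIR4999 and RAB11B-AS1.

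RAB8A and RAB10 are close relatives that carry vesicles to the plasma membrane and, for RAB8A, to the cilium. RAB8A, on chromosome 19 from 16222490 to 16244445, had 12.3 FPKM in ribosome profiling and 11.8 FPKM in RNA sequencing, 1.26-fold below the median gene. RAB10, on chromosome 2 from 26256729 to 26360323, had 15.0 FPKM in ribosome profiling and 17.6 FPKM in RNA sequencing, 1.53-fold below. RAB10 minus RAB8A came to -0.29 from the authors' deposited table, with an interval from -2.72 to 2.13. RAB8B had 2.78 FPKM in ribosome profiling and 2.85 FPKM in RNA sequencing, so that RAB8A exceeded it 4.42-fold in ribosome profiling and 4.14-fold in RNA sequencing. RAB8A minus RAB8B came to 0.09 from the authors' deposited table, with an interval from -2.44 to 2.62. RAB13, a RAB of cell junctions, had 10.1 FPKM in ribosome profiling and 6.98 FPKM in RNA sequencing, and all of its 30-base coding runs also occur in AL358472.6.

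The lowest ratios among the surface RABs were those of RAB12 and RAB23. RAB12, which acts on recycling endosomes and lysosomes, lies on chromosome 18 from 8609443 to 8639380. It had 1.79 FPKM in ribosome profiling and 11.2 FPKM in RNA sequencing, and its log2 ratio was -2.64 ± 1.24 in the authors' deposited table, with q = 0.296. RAB23, known as a negative regulator of Hedgehog signalling, had 0.36 FPKM in ribosome profiling and 5.33 FPKM in RNA sequencing. Its log2 ratio was -3.88 ± 2.00 in the authors' deposited table, in a row that their model did not test. RAB14 and RAB35 were also lower in ribosome profiling, at 3.12 against 7.33 FPKM and 6.31 against 8.89 FPKM. RAB15 was listed at 0 in ribosome profiling and had 2.33 FPKM in RNA sequencing, and the epithelial RAB17 and RAB25 were listed at 0 in both.

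Among the late endosome RABs, RAB7A, which brings late endosomes and autophagosomes to fuse with lysosomes, was first of the family in both libraries. It lies on chromosome 3 from 128444979 to 128533641 and had 62.2 FPKM in ribosome profiling and 38.2 FPKM in RNA sequencing, 1.23-fold above the median gene. Its log2 ratio was 0.70 ± 0.94 in the authors' deposited table. No row named RAB7B was used here. RAB9A, of transport from late endosomes to the Golgi, had 7.45 FPKM in ribosome profiling and 4.73 FPKM in RNA sequencing, the highest ratio among the members of 1 to 10 FPKM. RAB24, linked to autophagy, had 4.08 FPKM in ribosome profiling and 6.31 FPKM in RNA sequencing, and all of its 30-base coding runs also occur in MXD3. RAB28 was listed at 0 in ribosome profiling and had 3.35 FPKM in RNA sequencing, RAB42 was listed at 0 in ribosome profiling and had 0.63 FPKM in RNA sequencing, and RAB9B was listed at 0 in both.

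The RABs of regulated secretion and of lysosome-related organelles were low, as were those of the RAB40 family. RAB32, of melanosomes and other lysosome-related organelles, was the exception, at 10.4 FPKM in ribosome profiling and 7.20 FPKM in RNA sequencing. Its relative RAB38 was listed at 0 in ribosome profiling and had 0.88 FPKM in RNA sequencing. RAB3A, RAB3B and RAB3D, which dock secretory vesicles, had 1.33, 0.55 and 0 FPKM in ribosome profiling against 1.71, 4.08 and 3.95 FPKM in RNA sequencing. RAB3A minus RAB3B came to 2.54 from the authors' deposited table, with an interval from -1.57 to 6.65 that holds 0. RAB27A, of exocytosis, had 1.44 FPKM in ribosome profiling and 1.25 FPKM in RNA sequencing, and RAB27B had 0.25 and 0.16 FPKM in that order. RAB26 had 1.22 FPKM in ribosome profiling and 0.39 FPKM in RNA sequencing, and RAB39A had 1.09 and 2.46 FPKM in that order. RAB3C, RAB37 and RAB39B were listed at 0 in ribosome profiling and had 1.37, 0.95 and 0.34 FPKM in RNA sequencing, and RAB44 was listed at 0 in both. RAB40B, part of a ubiquitin ligase adaptor family, had 1.11 FPKM in ribosome profiling and 1.42 FPKM in RNA sequencing, RAB40C was listed at 0 in ribosome profiling and had 1.73 FPKM in RNA sequencing, and RAB40A and RAB40AL were listed at 0 in both.

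**Figure D2:**
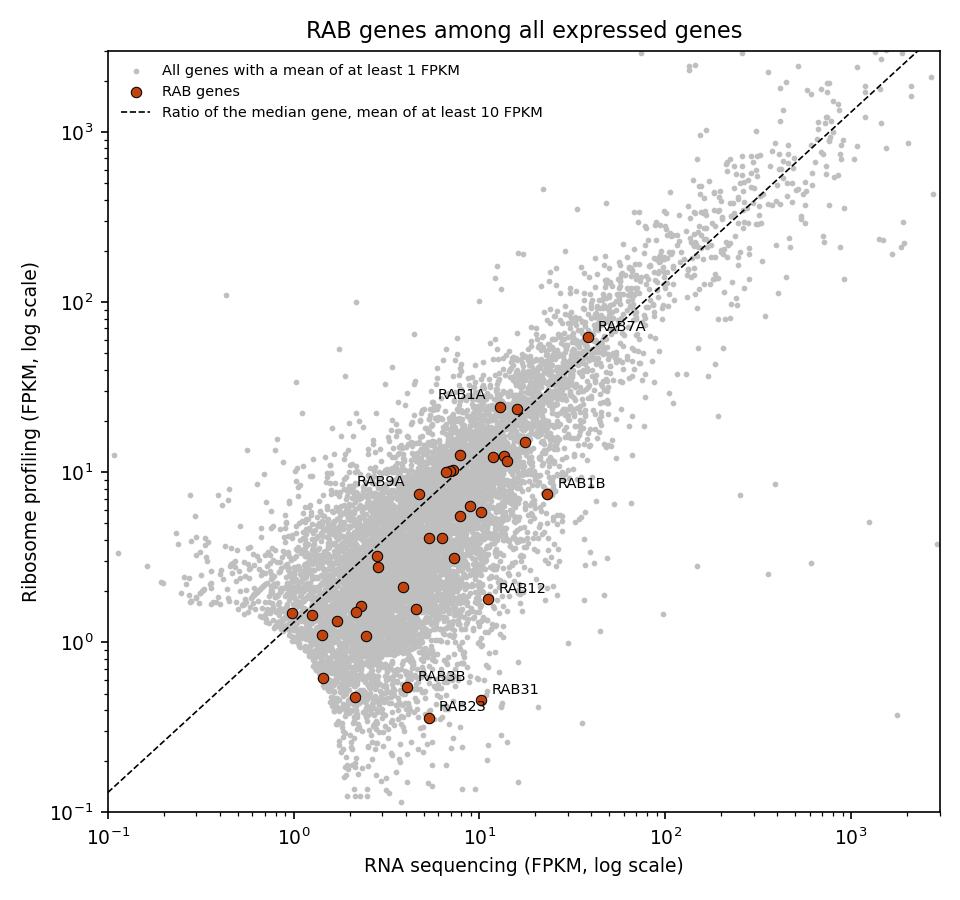
Ribosome profiling FPKM against RNA sequencing FPKM on log axes, with 1 point per gene of at least 1 mean FPKM that is above 0 in both libraries, RAB genes in orange and the ratio of the median gene of at least 10 FPKM as a dashed line. The RAB genes lie within the cloud of other genes, RAB7A, RAB1A and RAB9A above the line, and RAB1B, RAB12, RAB31, RAB23 and RAB3B well below it; 98 genes lie outside the axes.

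With the filter lowered to a mean of 1 FPKM, 40 members could be set beside 10853 genes, and the median of those genes was the new zero. Their median log2 ratio was -0.18. RAB1A alone, at 1.00, was at least 2-fold above that median, which is 2.50% of the members against 15.5% of all genes. At least 2-fold below were 9 members, or 22.5%, against 19.6% of all genes. These were RAB1B, RAB3B, RAB12, RAB23 and RAB31 together with RAB3D, RAB15, RAB28 and RAB43, which were listed at 0 in ribosome profiling. The listing at 0 held for 4 of 40 members and for 7.44% of all genes. At least 4-fold below were RAB31, RAB3D and RAB23, 3 members or 7.50%, against 5.96%, and none was 4-fold above, against 3.16%. By direction, 14 of the 40 lay above the new zero and 26 below it. By compartment the medians were -0.33 for 10 members of the endoplasmic reticulum and Golgi, -0.23 for 8 of early endosomes, -0.07 for 11 of recycling and the cell surface, 0.18 for 4 of late endosomes and autophagy, and -0.31 for 6 of regulated secretion and lysosome-related organelles.

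The levels in both assays went together across members. Over the 40 members Pearson's r was 0.77 on the log2(FPKM + 1) scale and Spearman's rho was 0.74, as a description across genes that share both libraries. Over the 10853 genes r was 0.64 and rho 0.58. The ratio itself was higher for members of higher mean FPKM, with a Spearman's rho of 0.44 over the 40 members, and 0.21 over 2176 protein-coding genes of at least 10 FPKM. Since the mean holds the ribosome profiling value, the ratio and the mean share it.

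The authors' model gave the only errors in the table. It assigned the status OK to 19 members, 8 with a positive and 11 with a negative log2 ratio, and called none of them significant, against 1.3% of 4849 rows with that status. At an unadjusted p under 0.05 in the authors' deposited table there were 2 of the 19, RAB12 and RAB31, or 10.5%, against 14.2% of all rows with that status. The intervals of the other 17 held 0. The remaining 42 members had the status NOTEST, among them RAB3A, RAB3B, RAB5B, RAB8B, RAB22A and RAB23. Errors given above for these genes and their pairs were derived in the same way, but from rows that the model did not test. The standard errors of the 19 ran from 0.75 to 1.57 on the log2 scale. Their median was 0.89, against 0.91 over all rows with the status OK. Without centring, RAB1A had a log2 ratio of 0.90 in the authors' deposited table, slightly above its standard error of 0.86. Its interval, from -0.78 to 2.57, held 0.

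**Figure D3:**
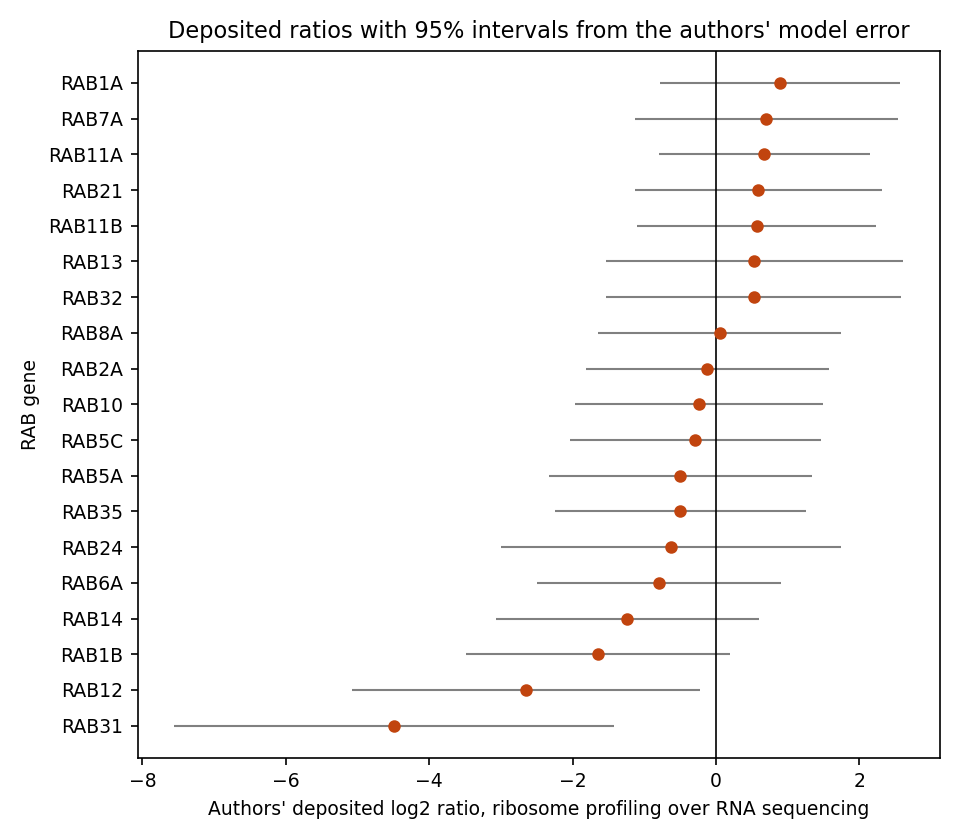
The authors' deposited log2 ratio, ribosome profiling over RNA, for the 19 RAB genes with the status OK, as points, with bars for 95% intervals from the authors' model error. The intervals of RAB12 and RAB31 lie below 0 and those of the other 17 cross it.

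Several members had a ratio identical to that of many other rows. RAB27B, RAB30 and RAB33B had exactly the same log2 ratio in the authors' deposited table, 0.64, which is also the commonest of the whole table, with 378 rows. RAB3A and RAB40B shared -0.36 with 217 rows in the authors' deposited table, RAB5A and RAB35 shared -0.50 and RAB14 and RAB22A shared -1.23. The number of fragments behind each value is unknown. Of the 61 members, 12 share their deposited locus with another row, among them RAB1A, RAB11B, RAB5A with PP2D1 and RAB3D with TSPAN16, and their values are uncertain to the extent that reads were not told apart.

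RAB mRNAs have a short coding part in a long transcript, which the name rule did not use. In the principal GENCODE transcript the 9 members of at least 10 FPKM had coding parts of 603 to 657 nt, with a median of 624 nt, against a median of 990 nt over 2176 protein-coding genes of that level. Their 3′ UTRs had a median of 1638 nt, against 539 nt. The coding part therefore took a median of 25.3% of the transcript, against 55.5%, with RAB11A lowest at 13.2% and RAB11B highest at 37.5%. Ribosome footprints are known to come mainly from coding parts, while RNA fragments come from whole transcripts. Which length the deposited FPKM values were scaled to is not given in the labels or headers. When the ribosome profiling value was taken per coding base, an alternative chosen after the data were seen that takes the whole transcript as that length, the median log2 ratio of the 9 members was 1.00, which is 1.99-fold above the median gene, in place of -0.34. Of the 9, 7 then lay above the median gene, 4 were at least 2-fold above, against 18.4% of the 2176 genes, and 1, RAB1B at -1.12, was at least 2-fold below, against 16.3%.

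That correction assumes that the ratio rises by 1 on the log2 scale for each doubling of the coding share. The rise measured over the 2176 genes was 0.17, with r = 0.12 and a Spearman's rho of 0.09, and over the 40 members of at least 1 FPKM it was 0.22. Genes with a coding share of up to 25%, 286 in all, had a median log2 ratio of -0.12, and 648 genes with a share of 25 to 50% had one of -0.04. The members in the lower of these classes were RAB11A at 0.23, RAB8A at -0.34, RAB2A at -0.50 and RAB10 at -0.61. In the higher class RAB1A was at 0.46, RAB7A at 0.30, RAB11B at 0.15, RAB5C at -0.65 and RAB1B at -1.91. The median of these members lay above the median gene when a rise of 1 was assumed, but the measured rises of 0.17 and 0.22 were far smaller. Their direction under a correction by the measured rise was not tested.

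**Figure D4:**
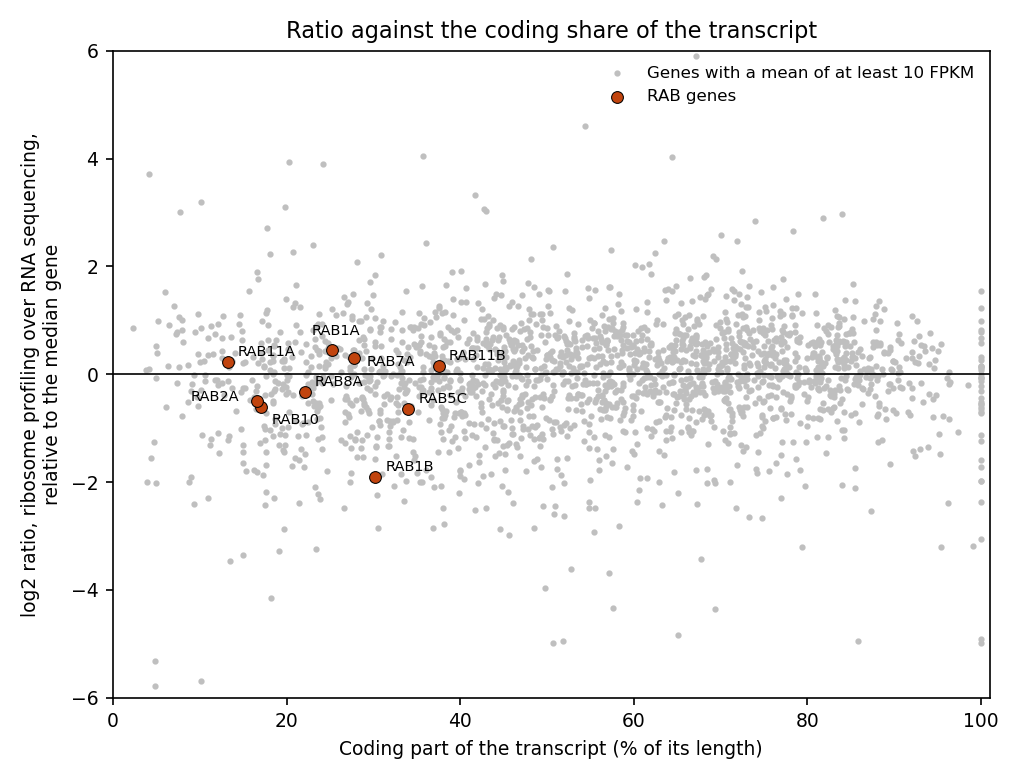
The log2 ratio (ribosome profiling over RNA) relative to the median gene, against the coding share of the principal transcript in percent, for genes with a mean of at least 10 FPKM, with the 9 RAB genes in orange. All RAB genes lie at coding shares under 38%, where other genes spread to both sides of 0; 8 genes lie beyond the vertical axis.

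Genes that load, activate and read RABs were set beside them, again at a mean of at least 10 FPKM. Of 18 rows for prenylation and GDP dissociation, 6 reached that level, with 0 of them 2-fold or more above the median gene, against 13.1% of all 2734 genes, and 2 that far below, against 19.7%. GDI2, a GDP dissociation inhibitor, had 33.8 FPKM in ribosome profiling and 20.6 FPKM in RNA sequencing, 1.23-fold above the median gene. RABAC1, a prenylated RAB acceptor, was the most abundant of the list, at 57.1 FPKM in ribosome profiling and 33.9 FPKM in RNA sequencing, and YIPF3 of the Golgi had 17.6 and 28.6 FPKM in that order.

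Of 46 rows for exchange factors, 5 reached 10 FPKM, with a median log2 ratio of -0.21. Of these 5, 1 was at least 2-fold above, against 13.1% of all genes, and 2 were at least 2-fold below, against 19.7%. All those named are subunits of TRAPP, the exchange complex of RAB1 and RAB11. TRAPPC4 had 19.0 FPKM in ribosome profiling and 5.55 FPKM in RNA sequencing, 2.34-fold above the median gene, and TRAPPC1 had 39.3 and 26.8 FPKM in that order. TRAPPC2L had 4.05 FPKM in ribosome profiling and 36.3 FPKM in RNA sequencing, 9.68-fold below, and TRAPPC5 had 21.9 and 37.0 FPKM in that order. TRAPPC2L, at -3.17 ± 1.57 in the authors' deposited table, was not called.

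Of 39 rows for GTPase-activating proteins 1 reached 10 FPKM, SGSM2, with 26.0 FPKM in ribosome profiling and 5.59 FPKM in RNA sequencing, 3.13-fold above the median gene. Of all genes of that level, 13.1% lay 2-fold or more above it. SGSM2 is known to act on RAB32 and RAB38 in melanocytes. RABGAP1 had 10.6 FPKM in ribosome profiling and 6.82 FPKM in RNA sequencing, and RAB3GAP1, the catalytic subunit of the RAB3 GTPase-activating complex, had 10.3 and 5.06 FPKM in that order. These 3 do not stand for the list. Its 31 rows of at least 1 FPKM had a median log2 ratio of -0.42 relative to the median gene of that level. Of the 31, 3 were at least 2-fold above, against 15.5% of all genes, and 7 at least 2-fold below, against 19.6%. Of 64 rows for effectors 4 reached 10 FPKM, none at least 2-fold above, against 13.1% of all genes, and 1 at least 2-fold below, against 19.7%. PLIN3, a lipid droplet protein that binds RAB9, had 37.7 FPKM in ribosome profiling and 35.1 FPKM in RNA sequencing. USO1, the tether that RAB1 recruits, had 13.1 FPKM in ribosome profiling and 7.33 FPKM in RNA sequencing, KIF20A, a kinesin that binds RAB6, had 14.3 and 8.99 FPKM, and EHBP1L1, a RAB8 effector, had 8.86 and 16.9 FPKM in that order. None of the regulators in these lists was called in the authors' deposited table.

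Other small GTPases give a measure of scale. The ARF family had 6 rows of at least 10 FPKM with a median log2 ratio of -0.79, 3 of them 2-fold or more below, against 19.7% of all genes, and 0 above by as much, against 13.1%. ARF1, of coat recruitment at the Golgi, had 37.4 FPKM in ribosome profiling and 31.5 FPKM in RNA sequencing, and ARF4 had 29.8 and 30.6 FPKM in that order. ARF5 had 14.5 FPKM in ribosome profiling and 25.4 FPKM in RNA sequencing. RHOA, of the actin cytoskeleton, had 111 FPKM in ribosome profiling and 68.1 FPKM in RNA sequencing, above RAB7A in each library. RAN, of nuclear transport, had 141 FPKM in ribosome profiling and 98.9 FPKM in RNA sequencing, RHOC had 45.9 and 42.3 FPKM, and RRAS had 7.75 and 25.5 FPKM in that order. The differences between these genes and the RABs were not tested.

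Of all gene rows, 11423 were above 0 in ribosome profiling and 13990 in RNA sequencing, with FPKM sums of 6457390 and 1846990, and the read depth is unknown. Of 18 cell type marker genes, 15 were listed at 0 in both libraries, among them the steroid synthesis genes STAR, CYP11A1 and CYP17A1 and the adrenal factor NR5A1. The adrenal origin in the label was thus not visible in these genes. The remaining genes of the 18 were KRT8, KRT18 and VIM. The epithelial keratins KRT8 and KRT18 had 69.7 and 139 FPKM in ribosome profiling and 41.9 and 57.2 FPKM in RNA sequencing, and the intermediate filament gene VIM had 707 FPKM in ribosome profiling and 490.2 FPKM in RNA sequencing.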

How the data were processed

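Total RNA and ribosome-protected fragments of transfected SW13 cells were made into 1 library each, per the labels' protocols. Tools listed, per the submitters' processing notes, are bedtools 2.16.1, SAMtools 0.1.18, TopHat2 2.0.8b and Bowtie2 2.0.0.6, beside the builds mm10 and hg19, and printed positions are those of the deposited table, taken as hg19, with 1 added to each start to count from 1. For the program behind the table, its annotation and any scaling between libraries, the sources used here give nothing. The deposited table holds, per the file headers, FPKM values per library, a log2 ratio, a test score, p-values, q-values and a call. The standard error of a deposited ratio was the ratio over the score, since a normal p (two-sided) computed from the score came within 0.001 of the deposited one in 100% of rows with the status OK.

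The ratio was the log2 of ribosome profiling FPKM plus 1 over RNA FPKM plus 1, centred on its median over genes of at least 10 mean FPKM with a status other than FAIL or HIDATA. With 1 library per group no test was run, and genes 2-fold or more from the median were counted. FPKM keeps no depth, so no counting interval is given. Named were members of at least 10 FPKM, those of highest and lowest ratio at 1 to 10 FPKM, paralogs, and the most abundant and extreme regulators. Some genes that this rule names are not reported here, and others were named after their values were seen. Members and lists were chosen with earlier results of these data known. Transcripts were from GENCODE release 29, which is on another build and gave no coordinates. It matched all 61 members and 90.1% of 2415 tested rows outside small RNAs, and the principal isoform need not be the one counted. Analyses used Python 3.11.15, pandas 2.3.3 and numpy 2.4.6, and the ratio step was tested on simulated data.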

Additional observations from a re-analysis of the deposited data

How the results depend on the processing

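The median log2 ratio of the RAB members, -0.34 over 9 of them, was -0.35 when 0.1 was the pseudocount and -0.29 when it was 5, -0.35 over rows of status OK, and -0.35 when small RNA rows stayed out of the centring. It was -0.18 over 40 members with a filter of 1 FPKM and -0.15 over 53 with no filter. It was above 0 at 0.12 with a filter of 30 FPKM, which left RAB7A alone, at 0.052 without centring and at 1.00 per coding base, which was added after seeing the data. Leaving out rows with more than 1 symbol did not move it. The count of members at least 2-fold above the median gene, 0 as reported, was 1 with a filter of 1 FPKM, 1 with no filter and 4 per coding base. The count at least 2-fold below, 1 as reported, was 9, 11 and 0 with filters of 1 FPKM, none and 30 FPKM. Those filters changed both the members that entered and the centre, which was 0.39 as reported and -0.16, -0.28 and 0.56 with filters of 1 FPKM, none and 30 FPKM. RAB1A, already among the 9 at 0.46, was at 1.00 with the filter of 1 FPKM. For 11 paralog pairs the difference in ratio moved by less than its standard error in all 33 alternative values, and 1 changed sign, RAB11A minus RAB11B, at -0.0023 with a pseudocount of 5. No paired analysis was possible because each assay has 1 library, and for the same reason no replicate could be left out. Depth, which the FPKM values do not hold, limits every ratio of a low gene.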
